A study of Homo sapiens with 14 samples.

Results

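The ST3GAL and ST6GAL sialyltransferases are 8 human genes, ST3GAL1 to ST3GAL6, ST6GAL1 and ST6GAL2. They were found by symbol, and by NCBI gene number where a table held no symbols, among the 27819 genes shared by all count tables, and all 8 were listed. All RNA-seq libraries were made from a single human line, CWR22Rv1, derived from prostate cancer. Cultures were exposed for 72 h, and DMSO (3 libraries) served as vehicle control. The inhibitors were Fucotrim I at 30 μM (3 libraries), Fucotrim II at 60 μM (2 libraries), SGN-2FF at 100 μM (3 libraries) and P-SiaFNEtoc at 2 μM (3 libraries). P-SiaFNEtoc, a fluorinated sialic acid analog, blocks sialyltransferases, and the other compounds were designed to lower fucosylation. Of those, SGN-2FF is 2-fluorofucose, and both Fucotrims, made from rhamnose-1-phosphate, act on how cells make GDP-fucose. In this line, binding of a fucose-binding lectin fell too little with Fucotrim I for the paper to set its potency. The paper still states that both Fucotrims can lower fucosylation in this line, though not equally well. The paper also states that the Fucotrims lower GDP-mannose and that the apoptosis they induced did not depend on reduced fucosylation. The L-fucose rescue behind the latter was done in another prostate cancer line, PC3, at a dose other than those used here. The comparison with DMSO asks how the mRNAs of the enzymes that add sialic acid to galactose stood after the cells had been under a fucosylation or a sialylation inhibitor.

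Sialyltransferases sit in the Golgi membrane and move sialic acid from its activated form, CMP-sialic acid, onto the outer ends of glycan chains. Enzymes of the ST3GAL group attach it to carbon 3 of a terminal galactose, and those of the ST6GAL group attach it to carbon 6. The members differ mainly in the chain they act on, which may be an O-glycan, an N-glycan or a glycolipid. Capping by sialic acid is widely studied in prostate cancer, where these enzymes have been linked to altered cell surface glycans.

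The libraries held 12553094 to 19981453 counts on genes. Values are given as CPM, counts scaled to library size with TMM factors over all 14 libraries, and fold changes and adjusted p-values come from edgeR's quasi-likelihood test of each inhibitor against DMSO, adjusted over all genes tested. A gene is said to rise or fall where the adjusted p-value was under 0.05. The luminal prostate markers KLK2, KLK3, HOXB13, KRT8, KRT18 and EPCAM were expressed in every library. KLK3, which encodes prostate-specific antigen, had log2 fold changes of 1.15 with Fucotrim I, 0.59 with Fucotrim II, 1.32 with SGN-2FF and 0.59 with P-SiaFNEtoc. The 3 basal and 3 endothelial markers summed to at most 0.454 CPM and 0.249 CPM in any library. The 4 fibroblast markers summed to 19.2 to 21.2 CPM in DMSO, 21.1 to 26.2 CPM with Fucotrim I, 26.2 to 32.7 CPM with Fucotrim II, 18.6 to 21.2 CPM with SGN-2FF and 21.2 to 22.4 CPM with P-SiaFNEtoc, and COL1A1, a collagen gene, rose with Fucotrim II (log2 fold change 0.59, adjusted p = 0.00185). Of the other fibroblast markers, COL1A2 had at most 3 counts and DCN at most 13 in any library, and LUM passed with no inhibitor. The 3 leukocyte markers summed to 4.86 to 6.30 CPM in DMSO and 4.65 to 8.09 CPM in the treated libraries. Among them CD3E was at 0 throughout, PTPRC had at most 3 counts in any library, and CD68, a macrophage gene, rose with SGN-2FF (log2 fold change 0.46, adjusted p = 0.0165). Mitochondrially encoded genes took 5.98 to 7.03% of the counts in DMSO, 8.67 to 14.2% with Fucotrim I, 12.2 to 17.0% with Fucotrim II, 8.27 to 8.69% with SGN-2FF and 6.11 to 6.83% with P-SiaFNEtoc. With those genes left out, the calls for the members were the same apart from that of ST3GAL1 with Fucotrim II. The part of the luminal, fibroblast and leukocyte markers in the results was not tested.

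ST6GAL1 rose with each of the 4 inhibitors, and none of the other members did so. The share of all genes that rose with all 4 was not counted, and the 4 comparisons share their DMSO libraries. The remaining members split by treatment. ST3GAL2, ST3GAL4 and ST3GAL5 rose with both Fucotrims, ST3GAL4 also with P-SiaFNEtoc, ST3GAL1 fell with the 3 fucosylation inhibitors, and ST3GAL3 fell with Fucotrim II, SGN-2FF and P-SiaFNEtoc. The fall of ST3GAL1 with Fucotrim II was lost in 11 of 14 alternative fits, and those of ST3GAL3 with Fucotrim II and with SGN-2FF in 4 of 14 each. Of the rises, that of ST3GAL4 was lost in 3 of 14 with Fucotrim I and in 6 of 14 with P-SiaFNEtoc, and that of ST3GAL2 with Fucotrim I in 2 of 14. ST3GAL6 passed the test with no inhibitor, and ST6GAL2 was too low to be tested with any.

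Of the 7 members tested, 4 rose and 1 fell with Fucotrim I, where 43.8% of the 14188 genes tested passed (21.6% higher and 22.1% lower). With Fucotrim II, 4 rose and 2 fell, against 51.4% of 14617 genes (25.6% higher and 25.7% lower). With SGN-2FF, 1 rose and 2 fell, against 20.6% of 14312 genes (11.5% higher and 9.08% lower). With P-SiaFNEtoc, 2 rose and 1 fell, against 16.3% of 14259 genes (9.02% higher and 7.33% lower). The last 2 shares of all genes depended on the fit. They were 11.4% with SGN-2FF and 6.71% with P-SiaFNEtoc in the fit of all 14 libraries, 11.4% without SGN-2FF replicate 2 and 10.4% without P-SiaFNEtoc replicate 2. The median log2 fold change of the 7 members was 0.33, 0.51, 0.14 and 0.24 in the same order, and that of all genes tested was 0.00, 0.01, 0.00 and 0.00. With CPM scaled within each comparison, treated and DMSO libraries did not overlap for 5, 7, 5 and 5 members, while this held for 52.6%, 67.7%, 36% and 33.7% of all genes tested. ST3GAL2 with P-SiaFNEtoc was one of these and overlapped when scaled over all 14 libraries (3.5934 CPM in the lowest treated and 3.5937 CPM in the highest DMSO library). The 4 comparisons share the same DMSO libraries, so they are not independent of each other. In whole-culture RNA, a change in the mix of cells and a change in mRNA per cell cannot be told apart.

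**Figure D1:**
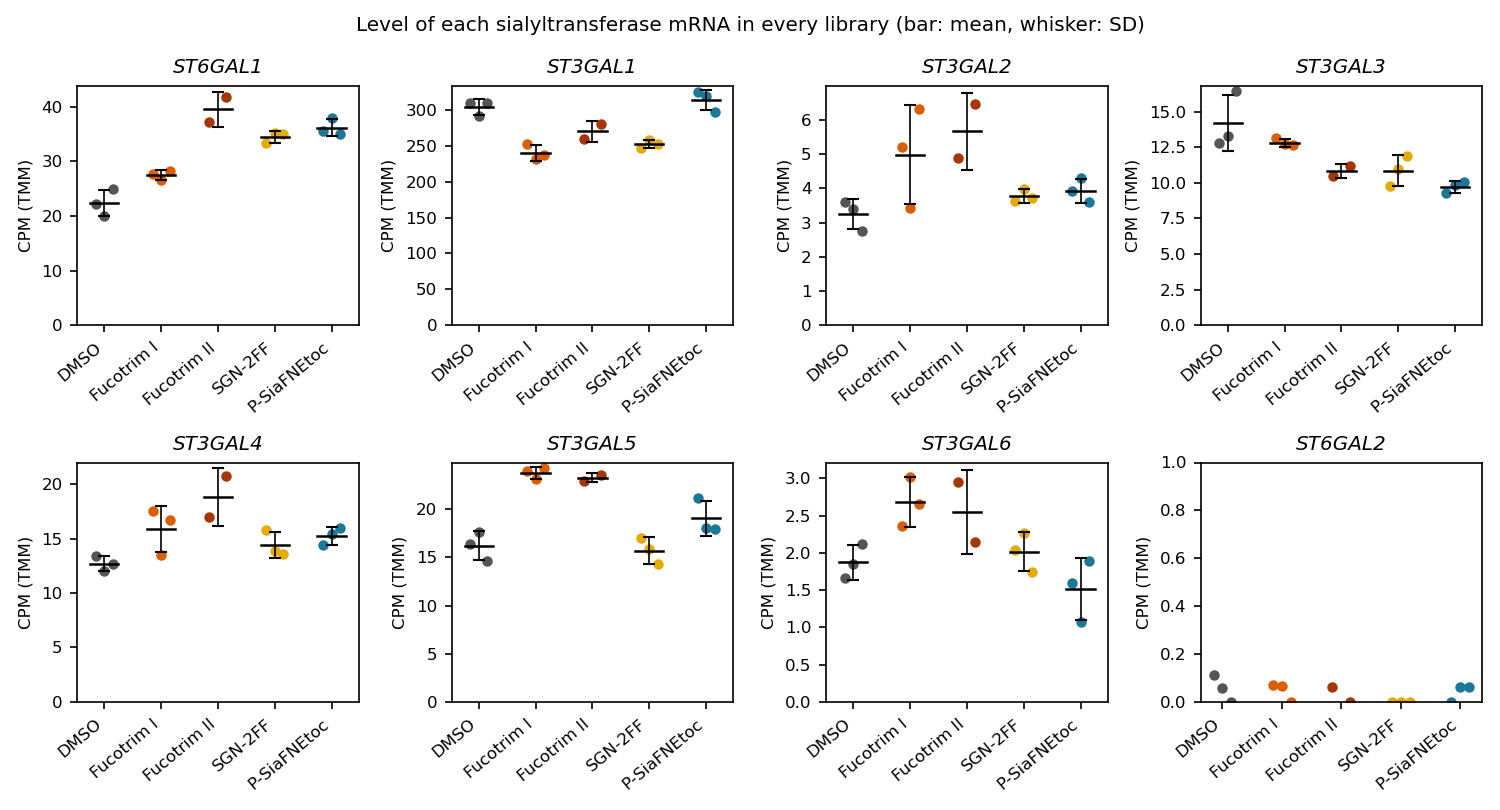
Level of each sialyltransferase mRNA in CPM (counts scaled to library size, linear axes from 0) in every library of the 5 groups, 1 panel per gene. Points are libraries, horizontal bars are means and whiskers are SDs (not drawn for ST6GAL2). All 11 treated libraries of ST6GAL1 lie above its 3 DMSO libraries, and ST3GAL1, at 303 CPM, has the highest DMSO mean of the 8 panels.

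The promoters of ST6GAL1 and ST3GAL3 are shown because these 2 members moved in opposite directions in 3 of the 4 comparisons and each has a single listed promoter. RefSeq promoters (GRCh38.p14) were found for 6 of the 8 members, with 3 to 5 starts each for ST3GAL4, ST3GAL5, ST3GAL6 and ST6GAL2, and ST3GAL1 and ST3GAL2 were not matched. Each sequence is the 250 bases before the start, on the plus strand, at chr3:186930276-186930525 for ST6GAL1 and at chr1:43707286-43707535 for ST3GAL3. Capitals mark GC boxes (GGGCGG on either strand) in ST6GAL1 and CCAAT boxes (CCAAT on either strand) in ST3GAL3.
ST6GAL1: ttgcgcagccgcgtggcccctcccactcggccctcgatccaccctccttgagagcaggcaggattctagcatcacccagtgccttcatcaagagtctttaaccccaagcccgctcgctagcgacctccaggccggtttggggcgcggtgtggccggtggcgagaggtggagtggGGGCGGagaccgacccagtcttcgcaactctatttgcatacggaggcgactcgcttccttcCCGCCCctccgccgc
ST3GAL3: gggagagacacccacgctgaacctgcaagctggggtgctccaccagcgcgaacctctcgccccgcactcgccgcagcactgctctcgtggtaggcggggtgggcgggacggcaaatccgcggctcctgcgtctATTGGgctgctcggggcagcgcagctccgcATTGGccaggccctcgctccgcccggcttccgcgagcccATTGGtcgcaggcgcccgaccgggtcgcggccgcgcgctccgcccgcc

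The ST6GAL1 window held 2 GC boxes and no CCAAT box. The ST3GAL3 window held 3 CCAAT boxes and 3 GC boxes. Over the 35116 promoter windows of the same length, 42.6% held at least 1 GC box, 32.0% at least 1 CCAAT box and 2.93% held 3 or more CCAAT boxes. Neither window held a TATA box (TATAAA) or an E-box (CACGTG), which were searched on both strands and found in 10.7% and 6.34% of all windows. The G and C content was 65.6% for ST6GAL1 and 74% for ST3GAL3, against a median of 58% over all windows. These matches describe the letters of the windows and were not tested against the expression values.

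ST6GAL1 (NCBI gene 6480, hg38 chromosome 3 from 186930526 to 187078553, plus strand) encodes the main enzyme that caps N-glycans with sialic acid on carbon 6 of galactose. It was at 22.2, 20.0 and 24.9 CPM in the DMSO libraries. It was at 27.6, 26.5 and 28.3 CPM with Fucotrim I and at 37.2 and 41.7 CPM with Fucotrim II. The libraries with SGN-2FF held 33.3, 35.2 and 34.9 CPM, and those with P-SiaFNEtoc 35.6, 37.9 and 35 CPM. No treated library overlapped with DMSO, and the lowest of them belonged to Fucotrim I. The log2 fold change was 0.31 with Fucotrim I (standard error 0.086, adjusted p = 0.00604) and 0.82 with Fucotrim II (standard error 0.10, adjusted p = 0.000218). It was 0.65 with SGN-2FF (standard error 0.075, adjusted p = 3.5e-07) and 0.70 with P-SiaFNEtoc (standard error 0.072, adjusted p = 2.83e-08), so that the cells held 1.24-fold to 1.76-fold as much of this mRNA as the DMSO cells. Each of the 4 calls passed in all 14 alternative fits run for it, with the largest adjusted p of 0.0486 for Fucotrim I.

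In the order of mean levels, ST6GAL1 went from 22.3 ± 2.45 CPM in DMSO (SD, n = 3) through 27.5 ± 0.862 CPM with Fucotrim I (SD, n = 3), 34.5 ± 1.05 CPM with SGN-2FF (SD, n = 3) and, with P-SiaFNEtoc, 36.2 ± 1.53 CPM (SD, n = 3) to 39.5 ± 3.15 CPM with Fucotrim II (SD, n = 2). The treatments were compared in 1 edgeR fit of all 14 libraries, which shares 1 estimate of the spread. Libraries of a group differed more under the Fucotrims. Between 2 libraries of a group, chi-square per degree of freedom was 6.45 to 20.8 with Fucotrim I and 29.0 with Fucotrim II. It was 1.63 to 4.89 in the other groups. Against DMSO, this fit passed 8437 genes with Fucotrim II and 1695 with SGN-2FF, and the separate fits 7511 and 2946. With Fucotrim I the count did not rise, at 6110 genes in this fit and 6209 in the separate fit. Given their wider spread, differences from the Fucotrims may pass too easily, which the gene counts show for Fucotrim II only. SGN-2FF stood above Fucotrim I by 0.32 on the log2 scale (standard error 0.079, adjusted p = 0.00523). The neighbours above it were not separated, since P-SiaFNEtoc minus SGN-2FF was 0.06 (95% confidence interval -0.09 to 0.22) and P-SiaFNEtoc minus Fucotrim II was -0.13 (-0.30 to 0.04). The doses differ between inhibitors, so these are differences between the treatments as given.

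ST6GAL2 (NCBI gene 84620, hg38 chromosome 2 from 106801600 to 106887277, minus strand), the other enzyme that links to carbon 6, was hardly counted. Its 14 libraries held 8 counts in all, with at most 2 in any of them and none in 7 libraries. A count of 0 allows a level of up to 3 counts, or 0.145 to 0.249 CPM in those 7 libraries, for counting error only. It did not pass the filter on low counts, and no change was detectable at this depth.

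ST3GAL1 (NCBI gene 6482, hg38 chromosome 8 from 133454848 to 133571887, minus strand) sialylates the core of O-glycans and was the most abundant member. It was at 310, 291 and 310 CPM in DMSO. It was at 252, 231 and 236 CPM with Fucotrim I, at 260 and 280 CPM with Fucotrim II and at 246, 257 and 252 CPM with SGN-2FF, all below every DMSO library. The libraries with P-SiaFNEtoc, at 325, 319 and 297 CPM, overlapped with DMSO. The log2 fold change was -0.33 with Fucotrim I (standard error 0.050, adjusted p = 2.83e-05) and -0.25 with SGN-2FF (standard error 0.038, adjusted p = 2.13e-05), and both calls passed in all 14 alternatives.

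The fall of ST3GAL1 with Fucotrim II, a log2 fold change of -0.17 (adjusted p = 0.0475), lay at the threshold and was lost in 11 of 14 alternatives. These included the fit without any 1 of the 3 DMSO libraries (adjusted p = 0.171, 0.072 and 0.186 without replicate 1, 2 and 3), the fit without Fucotrim II replicate 1 (0.0685) and the fit without mitochondrially encoded genes (0.0631). With P-SiaFNEtoc the log2 fold change was 0.05 (95% confidence interval -0.03 to 0.14). P-SiaFNEtoc stood above each fucosylation inhibitor, by 0.38 over Fucotrim I (adjusted p = 7.16e-06), 0.22 over Fucotrim II (adjusted p = 0.00291) and 0.31 over SGN-2FF (adjusted p = 0.000651) on the log2 scale, and these 3 differences passed in each of the alternatives run.

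ST3GAL2 (NCBI gene 6483, hg38 chromosome 16 from 70375977 to 70439100, minus strand) acts on O-glycans and on gangliosides and was among the scarce members, with 44 to 114 counts per library. It was at 3.59, 3.41 and 2.74 CPM in DMSO. With Fucotrim I it was at 5.22, 3.43 and 6.31 CPM and with Fucotrim II at 4.87 and 6.46 CPM. Fucotrim I replicate 2 lay inside the DMSO range, and the Fucotrim II libraries lay above it. The log2 fold change was 0.61 with Fucotrim I (standard error 0.20, adjusted p = 0.0195) and 0.79 with Fucotrim II (standard error 0.19, adjusted p = 0.00652). The call with Fucotrim I was lost without DMSO replicate 3 (0.51, adjusted p = 0.0782) and without Fucotrim I replicate 3 (0.42, adjusted p = 0.149). That with Fucotrim II passed in all 14 alternatives, although those without a Fucotrim II library take their spread from DMSO alone. With SGN-2FF and P-SiaFNEtoc the libraries held 3.59 to 4.29 CPM, and the log2 fold changes of 0.23 (95% confidence interval -0.12 to 0.58) and 0.27 (-0.06 to 0.61) did not pass. About 6.05% of its exon bases overlap an annotated gene on the opposite strand, and the strand setting of the counting was not given in the sources used here.

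ST3GAL3 (NCBI gene 6487, hg38 chromosome 1 from 43707536 to 43931159, plus strand) acts on N-acetyllactosamine ends of N-glycans and glycolipids. It was at 12.8, 13.3 and 16.4 CPM in DMSO. It was at 10.5 and 11.2 CPM with Fucotrim II, at 9.75, 11.0 and 11.9 CPM with SGN-2FF and at 9.27, 9.84 and 10.1 CPM with P-SiaFNEtoc, all below DMSO. The libraries with Fucotrim I, at 13.2, 12.7 and 12.6 CPM, overlapped with DMSO. The largest fall was that with P-SiaFNEtoc, at -0.54 on the log2 scale (standard error 0.10, adjusted p = 0.000462), which left 0.688 of the DMSO level and passed in all 14 alternatives.

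The log2 fold change of ST3GAL3 was -0.39 with Fucotrim II (standard error 0.13, adjusted p = 0.0341) and -0.36 with SGN-2FF (standard error 0.11, adjusted p = 0.0173). Both calls were lost without DMSO replicate 3, the highest of the 3 (-0.28, adjusted p = 0.113, and -0.25, adjusted p = 0.138), and in DESeq2 (adjusted p = 0.0613 and 0.0509). Each was lost in 4 of 14 alternatives. The call with Fucotrim II was also lost without Fucotrim II replicate 1 (-0.35), which leaves 1 treated library. It was lost as well with a block on the replicate numbers of the titles, which leaves out DMSO replicate 3 (-0.28, adjusted p = 0.259). With a block on those of the library names it held (-0.47, adjusted p = 0.00183). The call with SGN-2FF was also lost without SGN-2FF replicate 1 (adjusted p = 0.104) or 2 (adjusted p = 0.0728). With Fucotrim I the value was -0.13 (95% confidence interval -0.35 to 0.10). P-SiaFNEtoc stood below Fucotrim I by 0.41 on the log2 scale (log2 difference -0.41, adjusted p = 0.0064). About 10.4% of the exon bases of ST3GAL3 are shared with annotated genes on the same strand.

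ST3GAL4 (NCBI gene 6484, hg38 chromosome 11 from 126355686 to 126414638, plus strand) caps N-acetyllactosamine chains and takes part in making sialyl Lewis structures. It was at 13.4, 12 and 12.6 CPM in DMSO. It was at 17.5, 13.5 and 16.7 CPM with Fucotrim I and at 17.0 and 20.7 CPM with Fucotrim II. The libraries with SGN-2FF held 15.8, 13.9 and 13.5 CPM and those with P-SiaFNEtoc 14.4, 15.4 and 16.0 CPM. All treated libraries lay above DMSO, although the lowest with Fucotrim I and SGN-2FF lay close to the highest of DMSO. The log2 fold change was 0.57 with Fucotrim II (standard error 0.11, adjusted p = 0.00261), a call that passed in all 14 alternatives.

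With Fucotrim I the rise of ST3GAL4 was 0.33 (standard error 0.11, adjusted p = 0.0161) and was lost without DMSO replicate 2 (adjusted p = 0.0555), Fucotrim I replicate 1 (adjusted p = 0.0703) or Fucotrim I replicate 3 (adjusted p = 0.0685). With P-SiaFNEtoc it was 0.26 (standard error 0.088, adjusted p = 0.0374) and was lost in 6 of 14 alternatives. They were DESeq2 (adjusted p = 0.118), the fit of all 14 libraries together (0.143), and the fits without DMSO replicate 2 (0.136) or 3 (0.0888) or P-SiaFNEtoc replicate 2 (0.107) or 3 (0.123). With SGN-2FF the log2 fold change of 0.19 (95% confidence interval 0.00 to 0.39) had an adjusted p of 0.142.

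ST3GAL5 (NCBI gene 8869, hg38 chromosome 2 from 85837120 to 85889034, minus strand) makes GM3, the first sialylated glycolipid of the ganglioside series. It was at 16.4, 17.7 and 14.6 CPM in DMSO. With Fucotrim I it was at 24.0, 23.1 and 24.3 CPM and with Fucotrim II at 23.0 and 23.6 CPM. Both groups lay well above DMSO and overlapped with each other. The log2 fold change was 0.56 with Fucotrim I (standard error 0.087, adjusted p = 3.36e-05) and 0.51 with Fucotrim II (standard error 0.099, adjusted p = 0.00201), and both calls passed in all 14 alternatives. With SGN-2FF the libraries, at 17.0, 15.9 and 14.3 CPM, overlapped with DMSO, and the log2 fold change was -0.03 (95% confidence interval -0.22 to 0.15).

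SGN-2FF and the Fucotrims, all used as fucosylation inhibitors, thus differed in the level of ST3GAL5. The log2 difference of SGN-2FF was -0.60 from Fucotrim I (adjusted p = 6.49e-05) and -0.56 from Fucotrim II (adjusted p = 7.03e-05), and both passed in each of the alternatives run. With P-SiaFNEtoc, ST3GAL5 was at 21.2, 18.1 and 18 CPM, above DMSO, a log2 fold change of 0.24 (SE 0.086) whose adjusted p of 0.0508 missed the threshold and passed it in 4 of 14 alternatives. Among them were the fits without DMSO replicate 2 (adjusted p = 0.0232) and without P-SiaFNEtoc replicate 3 (adjusted p = 0.0452). P-SiaFNEtoc was also below Fucotrim I (log2 difference -0.32, adjusted p = 0.00726).

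ST3GAL6 (NCBI gene 10402, hg38 chromosome 3 from 98732262 to 98795852, plus strand), which like ST3GAL4 acts on N-acetyllactosamine, had only 17 to 49 counts per library. It was at 1.66, 1.84 and 2.12 CPM in DMSO, and its libraries lay above that range with Fucotrim I (2.36, 3.02 and 2.66 CPM) and with Fucotrim II (2.95 and 2.15 CPM). The log2 fold changes of 0.54 (95% confidence interval 0.08 to 0.99, adjusted p = 0.0535) and 0.44 (-0.10 to 0.98, adjusted p = 0.155) did not pass. With Fucotrim I the value passed in 3 of 14 alternatives, among them the fit without Fucotrim I replicate 1 (adjusted p = 0.039). The libraries with SGN-2FF (2.04, 2.27 and 1.74 CPM) and P-SiaFNEtoc (1.59, 1.07 and 1.89 CPM) overlapped with DMSO. P-SiaFNEtoc stood below both Fucotrims, with log2 differences of -0.82 from Fucotrim I (standard error 0.23, adjusted p = 0.0091) and -0.74 from Fucotrim II (standard error 0.25, adjusted p = 0.0175). The first was lost without P-SiaFNEtoc replicate 2 (-0.64, adjusted p = 0.0561) and the second without Fucotrim II replicate 1 (-0.50, adjusted p = 0.209). About 5.62% of its exon bases are shared with a pseudogene on the same strand and 6.49% with genes on the opposite strand.

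**Figure D2:**
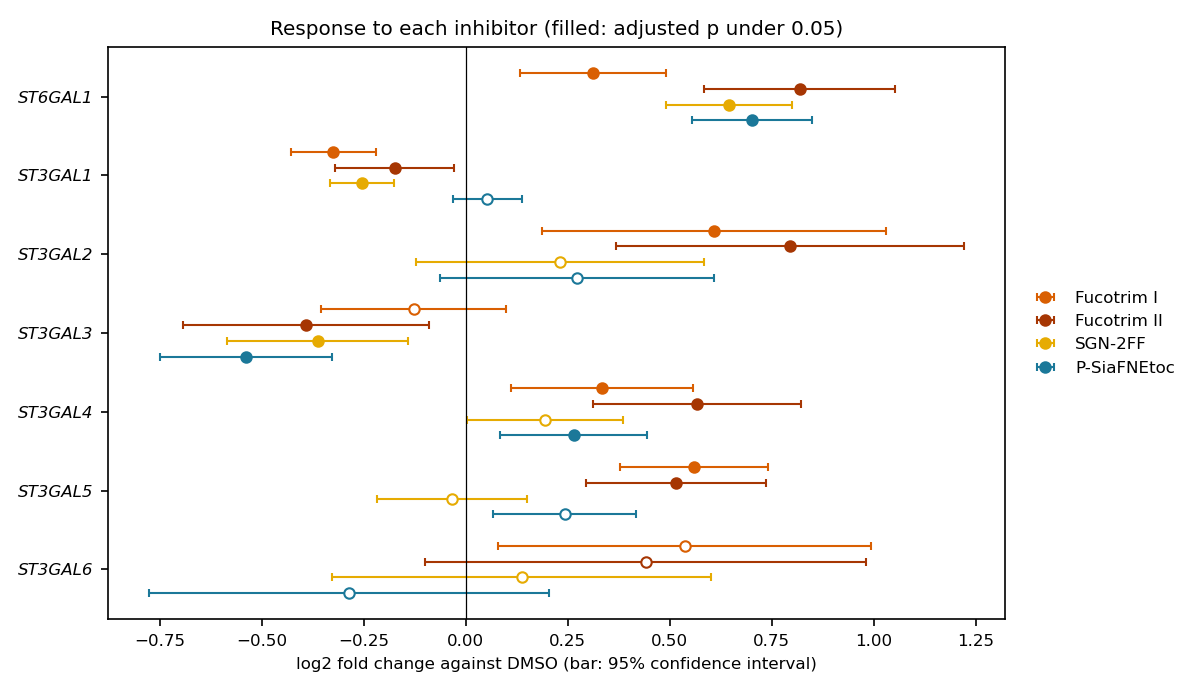
Log2 fold change of each of the 7 tested members against DMSO for the 4 inhibitors, from edgeR. Points are estimates, bars are 95% confidence intervals, and filled points passed at an adjusted p under 0.05. ST6GAL1 is filled and to the right of 0 for every inhibitor, ST3GAL1 is filled and to the left for the 3 fucosylation inhibitors (with Fucotrim II a call lost in 11 of 14 alternatives), and ST3GAL5 has SGN-2FF at -0.03 and both Fucotrims above 0.5.

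Between the 4 inhibitors, 42 differences were tested (7 members in 6 pairs), and 18 passed. They come from the fit with 1 shared spread, which may be too small for the Fucotrims and too large for the other groups. The share of all 14877 genes that passed was 24.2% for Fucotrim II against Fucotrim I, where 2 members passed, and 22.9% for SGN-2FF against Fucotrim I, where 2 passed. It was 31.3% for P-SiaFNEtoc against Fucotrim I, where 5 members passed. For SGN-2FF against Fucotrim II it was 46.3% with 3 members, for P-SiaFNEtoc against Fucotrim II 50.2% with 5 members, and for P-SiaFNEtoc against SGN-2FF 3.39% with 1 member, ST3GAL1. The number that passed ran from 13 to 20 when 1 library was left out in turn, with 13 without Fucotrim II replicate 2. The 2 Fucotrims differed in ST6GAL1 (log2 difference 0.52, higher with Fucotrim II, adjusted p = 0.000126) and in ST3GAL1 (0.16, adjusted p = 0.0439). The difference in ST3GAL1 was lost with DESeq2 size factors (adjusted p = 0.052) and without Fucotrim II replicate 2 (0.11, adjusted p = 0.274). For ST3GAL5 their difference was -0.04 (95% confidence interval -0.23 to 0.16). Fucotrim I was given at 30 μM and Fucotrim II at 60 μM.

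Levels were compared between members per kilobase of the canonical transcript in the GENCODE annotation. In DMSO, ST3GAL1 was at 45.2 ± 1.63 CPM per kb (SD, n = 3), ST3GAL4 at 7.02 ± 0.392, ST3GAL3 at 6.30 ± 0.872, ST6GAL1 at 4.85 ± 0.532, ST3GAL5 at 3.72 ± 0.348, ST3GAL6 at 0.586 ± 0.0722 and ST3GAL2 at 0.410 ± 0.0567 CPM per kb. The DMSO libraries of ST3GAL4 and ST3GAL3 overlapped on this scale, and those of every other pair of neighbours in the order did not. The summed level of the family was 68.1 ± 2.54 CPM per kb in DMSO, 63.1 ± 3.02 with Fucotrim I, 70.8 ± 4.57 with Fucotrim II (n = 2), 62.5 ± 0.766 with SGN-2FF and 72.7 ± 1.98 with P-SiaFNEtoc (SD, n = 3 otherwise).

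The make-up of the summed family level also differed between the groups. ST3GAL1 made up 65.7 to 67.0% of it in the DMSO libraries, 55.6 to 57.4% with Fucotrim I, 56.3 and 57.2% with Fucotrim II, 59.2 to 60.5% with SGN-2FF and 62.9 to 65.4% with P-SiaFNEtoc. The ST6GAL group, in effect ST6GAL1, made up 6.66 to 7.69% in DMSO and 9.10 to 9.68% with Fucotrim I. It made up 12 and 12.2% with Fucotrim II, 11.7 to 12.2% with SGN-2FF and 10.4 to 11.2% with P-SiaFNEtoc. No treated library overlapped with DMSO in either share. The shares depend on the length used. Per kilobase of all annotated exons, the mean share of ST3GAL1 was 84.2% in DMSO and 76.0 to 81.4% in the treated groups, and that of the ST6GAL group was 4.90% in DMSO and 6.97 to 8.78% in the treated groups, so the directions were the same. The order of the members also depends on the length. Per kilobase of all annotated exons, ST3GAL3, at 0.730 CPM per kb in DMSO, fell below ST6GAL1, at 2.01, and ST3GAL5, at 0.996 CPM per kb. ST3GAL2, at 0.333 CPM per kb, then stood above ST3GAL6, at 0.297 CPM per kb, with overlapping DMSO libraries.

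**Figure D3:**
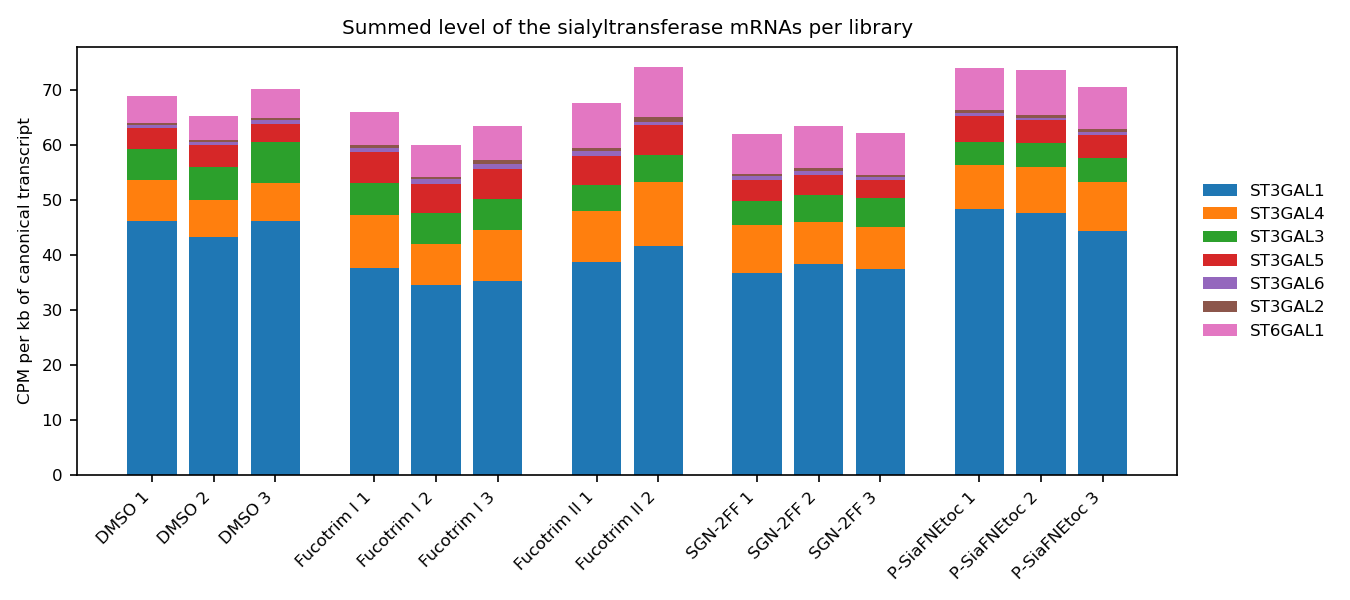
Summed level of the sialyltransferase mRNAs in each of the 14 libraries, in CPM per kb of the canonical transcript (linear axis from 0), stacked by gene, with ST6GAL2 left out because it was near 0. ST3GAL1 is the tallest block in every library, and the ST6GAL1 block at the top is taller in all treated libraries than in DMSO.

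Across the 14 libraries, which share their groups and differ in depth, the pattern of each member with at least 50 counts on average was set beside those of 11835 genes, as a description. The log2 CPM of ST6GAL1 ran most like those of SOD3 (Pearson r = 0.96) and SLC22A23 (r = 0.93). That of ST3GAL1 ran most like TBL1X (r = 0.97) and SLC7A1 (r = 0.95), and that of ST3GAL4 like ERGIC1 and SHISA5 (both r = 0.96). Among the closest were SIRT5 for ST3GAL5 (r = 0.92), EMID1 and PLPP6 for ST3GAL2 (both r = 0.91) and GUCY1B1 (r = 0.86) and LRIG1 (r = 0.84) for ST3GAL3.

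Other genes of the sialylation pathway were counted from fixed lists, beside the shares of all genes given above. Of the other sialyltransferases, the ST6GALNAC and ST8SIA groups, 6 of 12 genes could be tested. With Fucotrim I, 3 rose and 1 fell, with Fucotrim II 1 rose and 1 fell, with SGN-2FF 1 fell, and with P-SiaFNEtoc 1 rose. ST8SIA1, which adds a second sialic acid to the GM3 that ST3GAL5 makes, had the largest falls, with log2 fold changes of -1.72 with Fucotrim I (adjusted p = 0.0109) and -1.98 with Fucotrim II (adjusted p = 0.00632), from a mean level under 1 CPM. ST6GALNAC5, a ganglioside sialyltransferase, rose with P-SiaFNEtoc (0.64, adjusted p = 0.0017) and ST6GALNAC2, which acts on O-glycans, fell with SGN-2FF (-0.54, adjusted p = 0.0292). The largest rises with the Fucotrims were those of ST6GALNAC4 with Fucotrim I (0.33, adjusted p = 0.0327) and ST6GALNAC6 with Fucotrim II (0.35, adjusted p = 0.0148).

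Of the genes that make, activate, carry or remove sialic acid, 11 of 14 could be tested, and 4 rose and 3 fell with Fucotrim I, 3 and 2 with Fucotrim II, 2 and 1 with SGN-2FF, and 1 and 0 with P-SiaFNEtoc. RENBP, a renin-binding protein with N-acylglucosamine epimerase activity, had the largest rise in each comparison. Its log2 fold change was 0.82 with Fucotrim I (adjusted p = 1.41e-05), 1.29 with Fucotrim II (adjusted p = 5.08e-05), 0.40 with SGN-2FF (adjusted p = 0.0204) and 0.61 with P-SiaFNEtoc (adjusted p = 0.00067). NEU3, a sialidase that acts on gangliosides, fell with Fucotrim I (-0.38, adjusted p = 0.00737) and Fucotrim II (-0.96, adjusted p = 0.000277). CMAS, which makes CMP-sialic acid, had the largest fall with SGN-2FF (-0.17, adjusted p = 0.00543).

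Of the genes that build the acceptor chains, 18 of 20 could be tested, and 2 rose and 7 fell with Fucotrim I, 3 and 8 with Fucotrim II, 0 and 4 with SGN-2FF, and 2 and 2 with P-SiaFNEtoc. The median log2 fold change of this list was -0.12, -0.12, -0.10 and -0.05 in that order. B4GALNT1, which extends GM3 and related gangliosides, had the largest fall with each fucosylation inhibitor, with log2 fold changes of -0.48 with Fucotrim I (adjusted p = 0.000156), -0.93 with Fucotrim II (adjusted p = 0.00011) and -0.45 with SGN-2FF (adjusted p = 6.87e-05). MGAT4A, which adds an N-glycan branch, had the largest fall with P-SiaFNEtoc (-0.51, adjusted p = 0.000574). The largest rises were those of B3GNT2 with Fucotrim I (0.39), SLC35A2, the UDP-galactose transporter, with Fucotrim II (0.37) and B4GALT1, a galactosyltransferase of N-acetyllactosamine, with P-SiaFNEtoc (0.23).

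**Figure D4:**
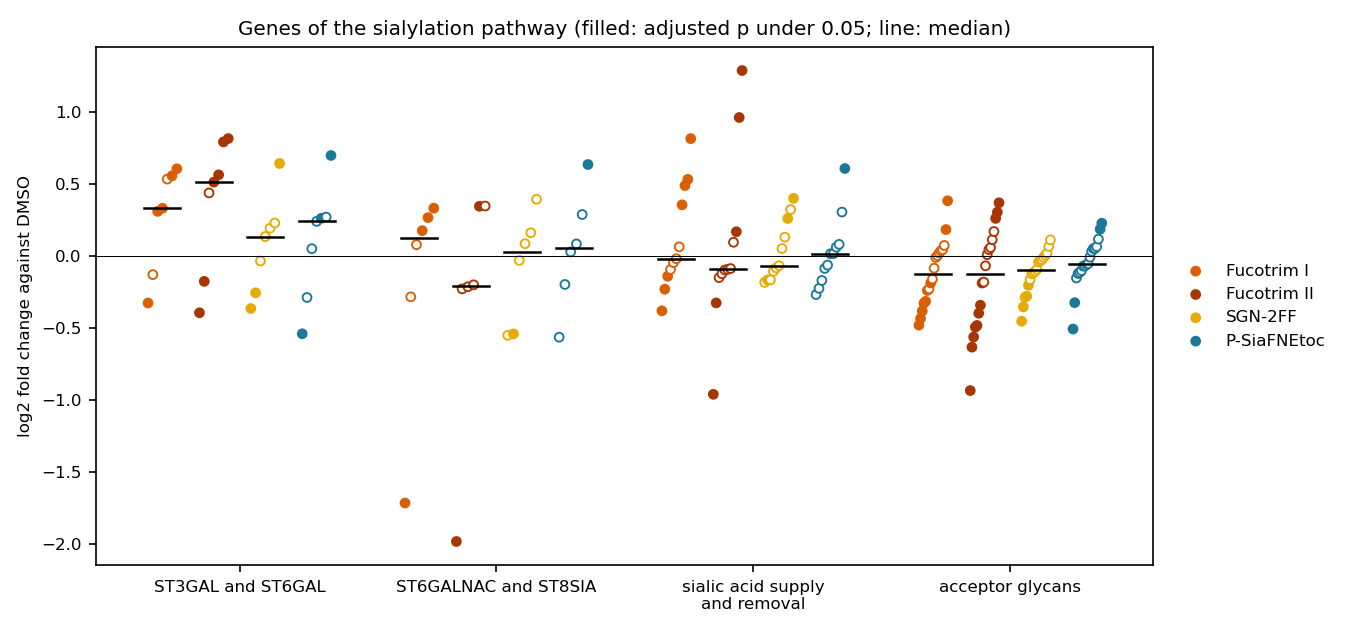
Log2 fold change against DMSO of each tested gene in 4 lists of the sialylation pathway, by inhibitor. Each point is a gene, filled where the adjusted p was under 0.05, and the line is the median of the list. The ST3GAL and ST6GAL list has medians of 0.14 to 0.51, and the acceptor glycan list has medians of -0.12 to -0.05.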

How the data were processed

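Stranded mRNA libraries were sequenced as single reads, which the authors processed in Galaxy (Cutadapt for trimming, HISAT2 for alignment to hg38, featureCounts for counting). FastQC and limma are also named in the submitters' processing notes. The deposited values are whole-number raw counts per gene, and each inhibitor has a table that repeats the DMSO libraries. The annotation release, the strand setting and how multimapping reads were treated were not given in the sources used here. Doses and times are those of the study's methods. Genes carry NCBI gene numbers, of which 549 in the SGN-2FF table had no symbol.

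Genes were filtered with edgeR 4.0.16 (filterByExpr, minimum count 10, minimum total 15) in R 4.3.3, scaled by TMM and tested with the robust quasi-likelihood test (two-sided), with Benjamini-Hochberg adjustment over all genes of a comparison and a threshold of 0.05. Each inhibitor was fitted with DMSO alone, and differences between inhibitors came from 1 fit of all 14 libraries. The standard error is the log2 fold change divided by the square root of its F statistic. Mitochondrially encoded genes were 37 rows. The 8 genes and all lists were chosen with earlier results of these data known. The genes named from the pathway lists are, per inhibitor and list, the gene that passed with the largest rise and that with the largest fall, and the similar patterns are the 2 genes with the highest Pearson r of log2 CPM (prior count 2) among those with a mean of at least 50 counts. Some genes that these rules name are not reported here. KLK3, COL1A1 and CD68 were named outside them, after their values were seen. The test was first tried on simulated counts, where the fit of all 14 libraries recovered fewer of the changed genes than the mark first set, and the mark was then lowered. Alternatives were DESeq2 1.42.0 (size factors and test), limma-voom 3.58.1, other filters, leaving out each library or mitochondrially encoded genes, a block on replicate number and a fit of all libraries. Promoters are RefSeq's, and figures were drawn with matplotlib.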

Additional observations from a re-analysis of the deposited data

Results flagged for a closer look

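The response of a member differed between 2 inhibitors in 18 of the 42 contrasts tested in the fit of all 14 libraries with edgeR (adjusted p-value under 0.05), and each is given here as a log2 difference. The doses differed between inhibitors. Fucotrim II minus Fucotrim I was 0.16 for ST3GAL1 and 0.52 for ST6GAL1. SGN-2FF minus Fucotrim I was -0.60 for ST3GAL5 and 0.32 for ST6GAL1. P-SiaFNEtoc minus Fucotrim I was 0.38 for ST3GAL1, -0.41 for ST3GAL3, -0.32 for ST3GAL5, -0.82 for ST3GAL6 and 0.39 for ST6GAL1. SGN-2FF minus Fucotrim II was -0.58 for ST3GAL2, -0.39 for ST3GAL4 and -0.56 for ST3GAL5. P-SiaFNEtoc minus Fucotrim II was 0.22 for ST3GAL1, -0.53 for ST3GAL2, -0.31 for ST3GAL4, -0.28 for ST3GAL5 and -0.74 for ST3GAL6. P-SiaFNEtoc minus SGN-2FF was 0.31 for ST3GAL1.

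Several of these rest on 1 library. Without Fucotrim II replicate 2, the differences from Fucotrim II of ST3GAL2 were -0.36 with SGN-2FF (adjusted p = 0.255) and -0.31 with P-SiaFNEtoc (adjusted p = 0.307), those of ST3GAL4 were -0.24 (adjusted p = 0.171) and -0.16 (adjusted p = 0.354), that of ST3GAL5 with P-SiaFNEtoc was -0.26 (adjusted p = 0.0698), and Fucotrim II minus Fucotrim I for ST3GAL1 was 0.11 (adjusted p = 0.274). With that library left out, the lone Fucotrim II library is assumed to vary like the other groups.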

How the results depend on the processing

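Of the log2 fold changes of members recomputed under the alternatives, 352 kept their direction and side of the threshold, 30 lost the call, 7 gained it and 2 turned. Of the log2 differences between inhibitors, 319 kept both, 11 lost the call, 5 gained it and 1 turned. Each difference had 8 alternatives. Only 1 of them left out a library, the one whose removal went most against the call or its absence. Changes without the other libraries are not in this tally. The values that turned were near 0 and did not pass in any of the alternatives. They were ST3GAL5 with SGN-2FF (0.026 without DMSO replicate 2 and 0.02 without SGN-2FF replicate 3, within a range from -0.10 to 0.026 when 1 library was left out) and ST3GAL3 for SGN-2FF against Fucotrim II (-0.045 with the replicate block). Counts of genes that passed moved by over 1.5 times with SGN-2FF and P-SiaFNEtoc. They were 1942 and 1482 in the DESeq2 test and 1695 and 998 in the fit of all 14 libraries together, and ranged from 1642 (without SGN-2FF replicate 2) to 3109 and from 1516 (without P-SiaFNEtoc replicate 2) to 2115 when 1 library was left out. The members that passed with Fucotrim I then ranged from 3 (without Fucotrim I replicate 3) to 5. The main fits did not pair libraries by replicate number. Same-numbered libraries of DMSO and Fucotrim I correlated in their deviations from the group means at 0.22, 0.26 and 0.03. Those with different numbers ran from -0.30 to 0.13. Same-numbered libraries of SGN-2FF were at 0.14, -0.07 and -0.16 and those of P-SiaFNEtoc at -0.07, 0.09 and 0.02. For Fucotrim II the same-numbered values were -0.31 and -0.41 by the numbers in the titles and 0.41 and 0.16 by those in the library names. Same-numbered pairs were thus all positive for Fucotrim I and, by library names, for Fucotrim II. The lowest of Fucotrim I, 0.03, lay below the highest with different numbers, 0.13. Deviations of the 2 Fucotrim II libraries from their mean are mirror images, so a DMSO library's values with them differ only in sign. Whether the cultures were paired by number cannot be settled from these values. With the replicate block, 7288 genes passed with Fucotrim I, 5294 with Fucotrim II (7746 by library names), 2868 with SGN-2FF and 2674 with P-SiaFNEtoc. For Fucotrim II the block kept only shared numbers, so it left out DMSO replicate 3 by titles and DMSO replicate 1 by library names. With the same libraries left out and no block, 5916 and 5934 genes passed. The members that passed under the block were 6, 4 (5 by library names), 3 and 4. With the block by title numbers, the falls with Fucotrim II of ST3GAL1 (adjusted p = 0.411, and 0.114 by library names) and ST3GAL3 (-0.28, adjusted p = 0.259, but 0.00183 by library names) did not pass. Without DMSO replicate 3 and with no block, neither passed (adjusted p = 0.186 and 0.113). Without DMSO replicate 1 and with no block, that of ST3GAL1 did not pass (adjusted p = 0.171). The block in the fit of all 14 libraries ended the difference of the 2 Fucotrims in ST3GAL1 (adjusted p = 0.0953). ST3GAL2 and ST3GAL6, with 17 to 114 counts per library, are limited by depth.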
